A study of Homo sapiens with 12 samples.

Results

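The genes described here are 40 interferon-stimulated genes and nucleic acid sensors, chosen by symbol from the 58381 genes of the count table. Each of the 40 symbols matched 1 row. Of these, 39 passed the filter on low counts, together with 15836 genes in all, and IFI27 had 0 counts in all 12 libraries. The study asked how loss of CD44, a cell surface receptor for hyaluronan, alters breast cancer cells, and poly(A) RNA was sequenced with strand from 4 groups of 3 libraries. The cells were Hs578T and MDA-MB-231, both established lines of triple negative breast cancer, which lacks oestrogen and progesterone receptors and HER2 amplification. All 4 groups carried a lentiviral, doxycycline-inducible Cas9 and were kept under puromycin. The CD44 KO cells were transfected with guide RNA plasmids against a pair of CD44 exons and sorted as live CD29+ CD44- cells, whereas the CD44 WT cells received transfection reagent only and were sorted as CD29+ CD44+ cells. Each group is thus a sorted population and not a clone, and all cells were held in low serum for a day before RNA was taken. The labels and the methods name no treatment with interferon. Since the WT cells received no guide plasmid, loss of CD44 and transfection with plasmid DNA cannot be told apart in these groups. The sources do not say that replicates were separate cultures, so the p-values measure the spread between these libraries, which may be technical.

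Interferons are secreted proteins that cells release when they sense foreign or misplaced nucleic acid. RIG-I (RIGI) and MDA5 (IFIH1) sense double-stranded RNA in the cytoplasm, and cGAS (CGAS) senses DNA and signals through STING (STING1). Bound interferon receptors signal through JAK kinases to transcription factors that include STAT2 and IRF9, which act at the interferon-stimulated response element (ISRE). The induced genes encode proteins that degrade or bind viral RNA, modify proteins with ISG15 or hold virions at the cell surface, and many tumour cells express a part of them without added interferon.

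The promoters of 5 members are shown. BST2, GBP1, IFIH1 and HERC6 were higher in CD44 KO in one of the lines. HERC5 is set beside its neighbour HERC6, since they differ in the letters marked below. RIGI, also higher in MDA-MB-231 KO, has a window with 0 of these matches that is not printed. Each sequence is the 250 bases before the annotated start of the gene from RefSeq on GRCh38.p14, read 5′ to 3′ on the strand of the gene. Capitals mark the core letters of the ISRE, which are GAAA, NN and GAAA in a row or, on the other strand, TTTC, NN and TTTC, with N for any base, and overlapping matches run together.
BST2, chr19:17405631-17405880, minus strand: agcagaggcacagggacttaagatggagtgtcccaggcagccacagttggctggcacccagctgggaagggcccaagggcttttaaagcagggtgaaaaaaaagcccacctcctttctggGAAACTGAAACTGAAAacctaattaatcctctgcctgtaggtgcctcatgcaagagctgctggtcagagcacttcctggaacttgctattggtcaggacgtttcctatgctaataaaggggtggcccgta
IFIH1, chr2:162318685-162318934, minus strand: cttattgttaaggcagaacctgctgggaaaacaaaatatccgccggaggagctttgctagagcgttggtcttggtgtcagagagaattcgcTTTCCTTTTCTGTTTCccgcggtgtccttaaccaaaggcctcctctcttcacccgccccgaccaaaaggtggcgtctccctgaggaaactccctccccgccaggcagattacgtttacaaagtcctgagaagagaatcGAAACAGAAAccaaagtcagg
GBP1, chr1:89065209-89065458, minus strand: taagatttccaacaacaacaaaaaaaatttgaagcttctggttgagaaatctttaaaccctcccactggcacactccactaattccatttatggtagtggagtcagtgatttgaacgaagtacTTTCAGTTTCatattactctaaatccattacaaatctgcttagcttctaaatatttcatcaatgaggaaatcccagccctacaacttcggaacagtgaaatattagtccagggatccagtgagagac
HERC5, chr4:88456869-88457118, plus strand: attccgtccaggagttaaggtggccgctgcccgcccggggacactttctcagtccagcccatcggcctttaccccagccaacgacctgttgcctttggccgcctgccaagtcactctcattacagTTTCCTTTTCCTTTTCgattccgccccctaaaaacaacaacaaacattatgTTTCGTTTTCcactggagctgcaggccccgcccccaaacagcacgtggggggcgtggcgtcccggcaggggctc
HERC6, chr4:88378602-88378851, plus strand: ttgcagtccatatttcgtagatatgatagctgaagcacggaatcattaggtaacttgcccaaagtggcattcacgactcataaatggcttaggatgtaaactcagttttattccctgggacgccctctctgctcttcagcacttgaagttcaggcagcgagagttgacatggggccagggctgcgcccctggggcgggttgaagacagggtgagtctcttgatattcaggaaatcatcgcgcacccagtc
Promoters were given for 31 of the 40 members, as windows of 300 bases that reach 50 bases past the start. The ISRE letters stood in 20 of these 31 windows (64.5%), against 996 of 27305 promoters of all genes (3.65%). IFIH1 and HERC5 held 3 matches each, BST2 held 2 and GBP1 held 1, while HERC6 held 0. In the annotation used for the counts, HERC6 starts at 88378739 and GBP1 at 89065360, inside the windows printed above. Windows set from those starts were not searched. The letters of the gamma-activated site (GAS), TTCNNNGAA, which read the same on both strands, stood in 9 of the 31 (29.0%) and in 7.88% of all promoters. Among the 6 members with a window that changed in CD44 KO, 3 held the ISRE letters (BST2, GBP1 and IFIH1) and 3 did not (HERC6, OAS1 and RIGI), and 17 of the 25 other windows held them. A match describes these letters only. The members outside the 31 are DHX58, CGAS, STING1, USP18, IFIT2, OAS2, OASL, MX2 and GBP2.

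The libraries held 10257586 to 19725543 counts. CD44 was low in all KO libraries, at -4.21 (Hs578T) and -3.40 (MDA-MB-231) on the log2 scale, so that its counts matched the labels. Levels are given as CPM, counts scaled to the library size in units of 1e6, adjusted by the trimmed mean of M-values (TMM). Calls were made with the quasi-likelihood test of edgeR where the p-value, adjusted over all 15836 genes by the Benjamini-Hochberg method, was 0.01 or less. Changes are log2 fold changes, written as the value ± its standard error. That error was worked back from the test, as the size of the change over the square root of the F statistic. VIM, an intermediate filament of mesenchymal cells, lay at 3730 to 7262 CPM, and PGR had 0 counts in every library. CDH1, the epithelial cadherin, stayed below 1 CPM. The epithelial keratins KRT8 and KRT18 were present in every library, at 270 to 596 CPM and 357 to 745 CPM. ERBB2, the gene of HER2, lay at 57.4 to 101 CPM. EPCAM and KRT19 were detected above 1 CPM in MDA-MB-231 and not in Hs578T, and CDH2 in Hs578T and not in MDA-MB-231. In bulk RNA, fewer cells that express a gene and less of its RNA per cell cannot be told apart.

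Of the 39 members tested, 9 were called changed in CD44 KO in 1 line and 0 in both lines. The share of all genes called in both lines was not computed. In Hs578T, 5 of 39 members (12.8%) were called changed, against 7.51% of all genes tested. HERC6, GBP2, GBP1 and IFIH1 rose (4 of 39, against 3.64% of all genes) and OAS1 fell (1 of 39, against 3.86%). In MDA-MB-231, 4 of 39 members (10.3%) were called, against 4.62% of all genes. Here BST2 and RIGI rose (2 of 39, against 1.97%) while STING1 and USP18 fell (2 of 39, against 2.65%). Over the members the median change on the log2 scale was 0.20 (Hs578T) and 0.09 (MDA-MB-231), beside medians of -0.0016 and -0.0096 for all genes. Within 0.5 log2 units of 0 in both lines lay 22 members, and the share of all genes there was not computed. The KO and WT libraries did not overlap for 11 members in Hs578T, against 37.3% of all genes, and for 11 members in MDA-MB-231, against 25.5% of all genes. Only the members called in each comparison are said to have risen or fallen below.

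**Figure D1:**
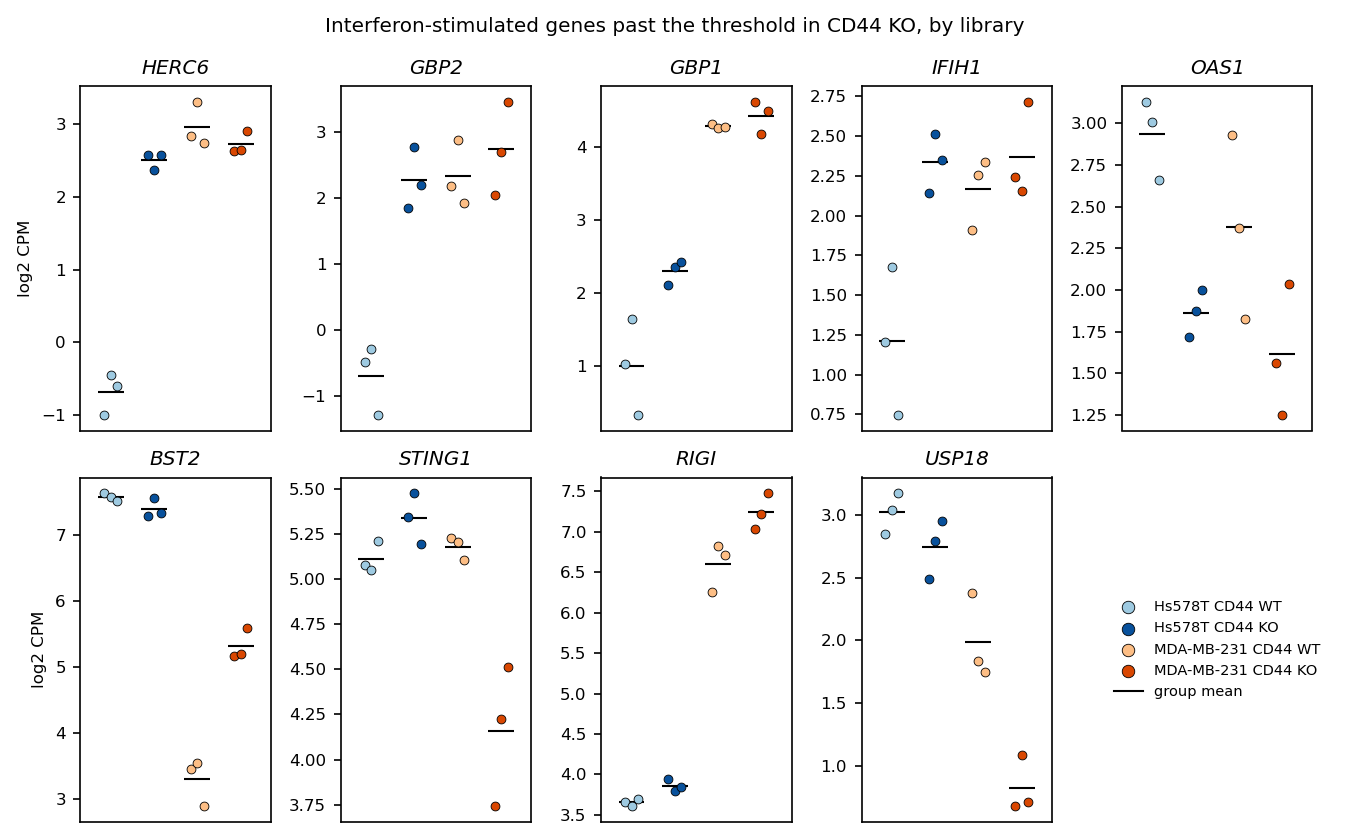
Level of the 9 members called in CD44 KO, as log2 CPM (vertical axis, a separate scale for each gene), in each of the 12 libraries; points are libraries and lines are group means. The top row holds the 5 genes called in Hs578T and the bottom row the 4 called in MDA-MB-231; HERC6, GBP2 and BST2 show the widest gaps between KO and WT libraries.

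Of the 6 genes of nucleic acid sensing, 1 was called in Hs578T (against 7.51% of all genes) and 2 in MDA-MB-231 (against 4.62%). IFIH1 (ENSG00000115267.5; chromosome 2, 162267079 to 162318703), which encodes the RNA sensor MDA5, stood at 2.15, 3.04 and 1.52 CPM in Hs578T CD44 WT and at 4.25, 5.55 and 4.95 CPM in CD44 KO. All 3 KO libraries lay above all 3 WT libraries, and the log2 fold change was 1.14 ± 0.26, adjusted p = 0.00717. In MDA-MB-231 the WT libraries held 3.60, 4.62 and 4.90 CPM and the KO libraries 4.57, 4.29 and 6.42 CPM, and these ranges overlapped (0.20 ± 0.24). The call for IFIH1 in Hs578T was lost in 8 of 23 alternative settings, with a highest adjusted p of 0.0411. RIGI (ENSG00000107201.9; chromosome 9, 32455705 to 32526324), the sensor RIG-I, was at 12.5, 12.01 and 12.8 CPM in Hs578T WT and 15.2, 13.7 and 14.2 CPM in KO (0.20 ± 0.16, adjusted p = 0.457). The Hs578T KO libraries all lay above the WT libraries, but the change did not pass the test. In MDA-MB-231, RIGI ranged far higher, with 76.3, 113 and 105 CPM in WT and 131, 149 and 178 CPM in KO. There it rose, with a change of 0.64 ± 0.13, adjusted p = 0.00630, a call lost in 8 of 23 settings, with a highest adjusted p of 0.0505. The changes of IFIH1 and RIGI did not differ between the lines past the threshold (adjusted p of 0.107 and 0.214).

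STING1 (ENSG00000184584.12; chromosome 5, 139475534 to 139482935), the adaptor that relays the signal of cGAS, was called in MDA-MB-231, and its change differed between the lines. Its level in Hs578T was 33.6, 32.9 and 36.8 CPM in WT and 40.4, 44.3 and 36.5 CPM in KO (0.23 ± 0.14, adjusted p = 0.326). In MDA-MB-231 it was 37.4, 36.7 and 34.2 CPM in WT and 13.2, 18.5 and 22.7 CPM in KO, with every KO library below every WT library. It fell, with a change of -0.99 ± 0.15, adjusted p = 0.000564, and the Hs578T change minus the MDA-MB-231 change was 1.23 ± 0.21, adjusted p = 0.00158. Fitted on the MDA-MB-231 libraries alone, the call was lost (adjusted p = 0.0123). In CD44 WT cells the difference of the lines did not pass (0.07 ± 0.15, MDA-MB-231 over Hs578T). The DNA sensor itself, CGAS, held 23.0, 22.1 and 27.7 CPM in Hs578T WT and 24.1, 22.5 and 19.0 CPM in KO. In MDA-MB-231 it held 46.1, 42.3 and 50.6 CPM in WT and 47.8, 46.1 and 43.6 CPM in KO. These ranges overlapped in each line (-0.15 ± 0.12 and -0.02 ± 0.11), so that a lower level of the adaptor stood beside an overlapping level of the sensor. IFI16, a nuclear DNA-binding protein, and DHX58, a regulator of RIG-I and MDA5, were not called in either line, with DHX58 under 2 CPM and poorly measured (0.54 ± 0.84 and -0.69 ± 0.48).

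The transcription factors STAT2, IRF9 and IRF1 were not called in CD44 KO in either line. On the log2 scale their changes lay between -0.24 and 0.32 in Hs578T and between -0.06 and 0.28 in the other line. IRF9, the DNA-binding part of the factor that reads the ISRE, was at 0.846 to 1.81 CPM in Hs578T WT and at 0.863 to 1.20 CPM in KO. STAT2 was at 55.9 to 61.4 CPM in Hs578T WT and 60.1 to 64.3 CPM in KO.

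Of the genes of ISG15 conjugation, ISG15 itself, a ubiquitin-like protein joined to other proteins, was not called (-0.20 ± 0.17 in Hs578T and -0.25 ± 0.16 in MDA-MB-231). HERC6 (ENSG00000138642.14; chromosome 4, 88378739 to 88443111), a HECT-type ubiquitin ligase related to the human ISG15 ligase HERC5, was nearly silent in Hs578T WT, at 0.347, 0.576 and 0.508 CPM, and reached 5.78, 4.99 and 5.80 CPM in KO. The groups lay far apart, and HERC6 rose by 3.52 ± 0.28, adjusted p = 8.18e-07. In MDA-MB-231 it was present in every library, at 6.94, 9.73 and 6.50 CPM in WT and 6.01, 6.09 and 7.31 CPM in KO (-0.27 ± 0.19). The change was larger in Hs578T than in MDA-MB-231 by 3.79 ± 0.34, adjusted p = 6.71e-06, and it held in all 22 alternative settings of the difference. HERC5 (ENSG00000138646.8; chromosome 4, 88457117 to 88506163) follows HERC6 on the chromosome. It had 0 counts in the 3 Hs578T WT libraries and 0, 8 and 2 counts in the KO libraries, 10 in all. Scaled to library size, this total was 3.17-fold the limit set by 3 counts over the WT group. That ratio is drawn as a lower bound in the figures and takes the KO counts as exact. The change did not pass the threshold (adjusted p = 0.0422). In MDA-MB-231 the same gene held 33.1, 32.3 and 38.4 CPM in WT and 38.0, 40.5 and 40.3 CPM in KO (0.20 ± 0.17). HERC5 was thus at or near 0 in every Hs578T library and at 32.3 CPM or more in every MDA-MB-231 library.

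USP18 (ENSG00000184979.9; chromosome 22, 18149899 to 18177397), the protease that removes ISG15 and restrains the type I interferon receptor, fell in MDA-MB-231. It was at 5.06, 3.41 and 3.21 CPM in WT and at 1.44, 1.96 and 1.48 CPM in KO, without overlap (-1.22 ± 0.25, adjusted p = 0.00527). In Hs578T it was at 7.07, 8.06 and 8.89 CPM in WT and 5.46, 6.78 and 7.59 CPM in KO, with overlap (-0.27 ± 0.20). The difference between the lines did not pass the threshold (adjusted p = 0.0711), and the MDA-MB-231 call was lost in 7 of 23 settings, with a highest adjusted p of 0.0285. USP18 has near-identical copies on its chromosome, and reads shared with them could not be assigned.

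The IFIT proteins bind viral RNA, and not one of IFIT1, IFIT2, IFIT3 and IFIT5 was called in CD44 KO. In MDA-MB-231 the KO libraries of IFIT1 and IFIT3 lay below all WT libraries, at 9.40 to 14.3 CPM against 16.04 to 20.3 CPM for IFIT1 and at 35.2 to 44.1 CPM against 45.1 to 50.9 CPM for IFIT3. Neither passed the threshold (-0.63 ± 0.17, adjusted p = 0.0297 and -0.28 ± 0.13, adjusted p = 0.221). In Hs578T their fold changes were 0.04 ± 0.18 and 0.32 ± 0.17. KO and WT libraries did not overlap, in either direction, for 25.5% of all genes in MDA-MB-231.

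The OAS enzymes make the oligoadenylate that activates RNase L, and all 4 members had negative fold changes in Hs578T. OAS1 (ENSG00000089127.12; chromosome 12, 112906777 to 112933222) was at 8.60, 7.90 and 6.18 CPM in Hs578T WT and at 3.13, 3.51 and 3.84 CPM in KO. The KO libraries all lay below the WT libraries, and OAS1 fell (-1.12 ± 0.27, adjusted p = 0.00995), just inside the threshold. Its call was lost in 10 of 23 settings, with a highest adjusted p of 0.0519. In MDA-MB-231, where OAS1 was at 7.46, 5.03 and 3.39 CPM in WT and 2.80, 2.22 and 3.95 CPM in KO, the groups overlapped (-0.86 ± 0.28, adjusted p = 0.0692). The neighbouring OAS3 held 25.9, 29.0 and 15.1 CPM in Hs578T WT and 16.4, 18.1 and 18.4 CPM in KO (-0.40 ± 0.20), and 30.7, 44.4 and 37.6 CPM in MDA-MB-231 WT and 40.5, 42.9 and 51.6 CPM in KO (0.26 ± 0.19). OAS2, the next gene along, held 0.247 to 0.555 CPM in Hs578T WT and 0.171 to 0.241 CPM in KO (-0.84 ± 0.58). In MDA-MB-231 it held 5.48, 3.89 and 4.45 CPM in WT and 2.54, 2.54 and 4.25 CPM in KO (-0.59 ± 0.26). OASL, an OAS-like protein without the enzyme's activity, was at -0.09 ± 0.47 and 0.12 ± 0.42.

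The guanylate-binding proteins, large GTPases that act on intracellular pathogens, rose in Hs578T in both members, GBP1 and GBP2. GBP2 (ENSG00000162645.12; chromosome 1, 89106132 to 89150456) was at 0.555, 0.658 and 0.254 CPM in WT and at 3.45, 6.66 and 4.44 CPM in KO. GBP1 (ENSG00000117228.9; chromosome 1, 89052319 to 89065360) was at 1.87, 2.96 and 1.10 CPM in WT and at 4.17, 4.93 and 5.20 CPM in KO. For both genes each KO library lay above each WT library, and the increases were 3.29 ± 0.49, adjusted p = 0.000324 for GBP2 and 1.27 ± 0.25, adjusted p = 0.00342 for GBP1. In MDA-MB-231, GBP2 was at 4.37, 7.22 and 3.65 CPM in WT and 3.98, 6.36 and 10.9 CPM in KO (0.45 ± 0.35). GBP1 there was at 19.7, 19.0 and 19.1 CPM in WT and 24.4, 17.9 and 22.2 CPM in KO (0.15 ± 0.18). Both sets overlapped between KO and WT. The change of GBP2 was larger in Hs578T (2.83 ± 0.62, adjusted p = 0.00885), a call lost in 11 of 22 settings, with a highest adjusted p of 0.0296. For GBP1 the difference of 1.11 ± 0.31 did not pass (adjusted p = 0.0345), and its call in Hs578T was lost in 4 of 23 settings. The dynamin-like GTPases MX1 and MX2, which block viral nucleocapsids, were not called. MX1 held 7.88 to 10.1 CPM in MDA-MB-231 KO, below the 10.5 to 15.8 CPM of WT, at -0.54 ± 0.20, adjusted p = 0.106.

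The DDX60, PARP and SAMD9 families hold RNA helicase-like, ADP-ribosyltransferase and growth-limiting proteins, and 0 of their 6 members were called in CD44 KO by edgeR in either line. At an unadjusted p under 0.05 there were 1 in Hs578T and 2 in MDA-MB-231, where 27.4% and 23.4% of all genes tested passed the same limit. Log2 changes of the family members lay between -0.20 and 0.37 (Hs578T) and between -0.05 and 0.39 (MDA-MB-231). In MDA-MB-231 the KO libraries of DDX60, DDX60L and PARP14 lay above all WT libraries (0.39 ± 0.20, 0.31 ± 0.13 and 0.33 ± 0.11). Such a gap, in either direction, was present there for 25.5% of all genes.

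Of the remaining effectors, BST2 (ENSG00000130303.12; chromosome 19, 17402939 to 17405648), or tetherin, which holds budding virions on the cell surface, moved most. In MDA-MB-231 it was at 10.8, 11.4 and 7.22 CPM in WT and at 35.6, 36.7 and 47.9 CPM in KO, so that the lowest KO library lay far above the highest WT library. It rose by 2.02 ± 0.16, adjusted p = 1.20e-06. In Hs578T, where its level was much higher, it was at 199, 191 and 183 CPM in WT and 156, 189 and 161 CPM in KO (-0.18 ± 0.13, adjusted p = 0.423), with overlap. The difference of the changes, Hs578T minus MDA-MB-231, was -2.20 ± 0.21, adjusted p = 8.60e-06, and BST2 kept its call in all 23 settings for MDA-MB-231 and all 22 for the difference. IFI44 and RIGI were the members whose KO libraries all lay above the WT libraries in both lines. The share of all genes that did so was not computed. IFI44, a cytoplasmic protein of the interferon response, went from 0.763, 0.740 and 0.931 CPM to 1.28, 2.40 and 1.54 CPM in Hs578T (1.13 ± 0.31, adjusted p = 0.0217). In MDA-MB-231 it went from 8.23, 10.5 and 8.82 CPM to 12.8, 11.9 and 15.8 CPM (0.54 ± 0.19, adjusted p = 0.0835). Both changes missed the threshold. The other effectors tested, ISG20, IFI6, IFI35, IFI44L, XAF1 and EPSTI1, lay between -0.18 and 0.48 (Hs578T) and between -0.23 and 0.74 (MDA-MB-231) on the log2 scale. The 0 counts of IFI27 among 155345578 counts allow a level of up to 0.0194 CPM, for counting error only.

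The direction of change was compared between the lines for all 39 members, in comparisons that share no library. Shares of like and unlike signs over all genes were not computed, so the counts here describe the members only. The fold changes had the same sign for 26 members, 17 positive and 9 negative, and opposite signs for 13. Of these 13, 8 were positive in Hs578T and negative in MDA-MB-231 (DHX58, HERC6, IFI35, IFIT1, IFIT3, MX1, STAT2 and STING1), and 5 were the reverse (BST2, IRF9, OAS3, OASL and XAF1). The test of the difference called 4 members, HERC6, GBP2, STING1 and BST2, against 4.12% of all genes. HERC6, STING1 and BST2 had opposite signs, whereas GBP2 was positive in both lines. In each of these 3 genes the groups overlapped in the line without a call, and no member had KO and WT libraries apart in both lines on opposite sides. A change in opposite directions was therefore not shown for any member.

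**Figure D2:**
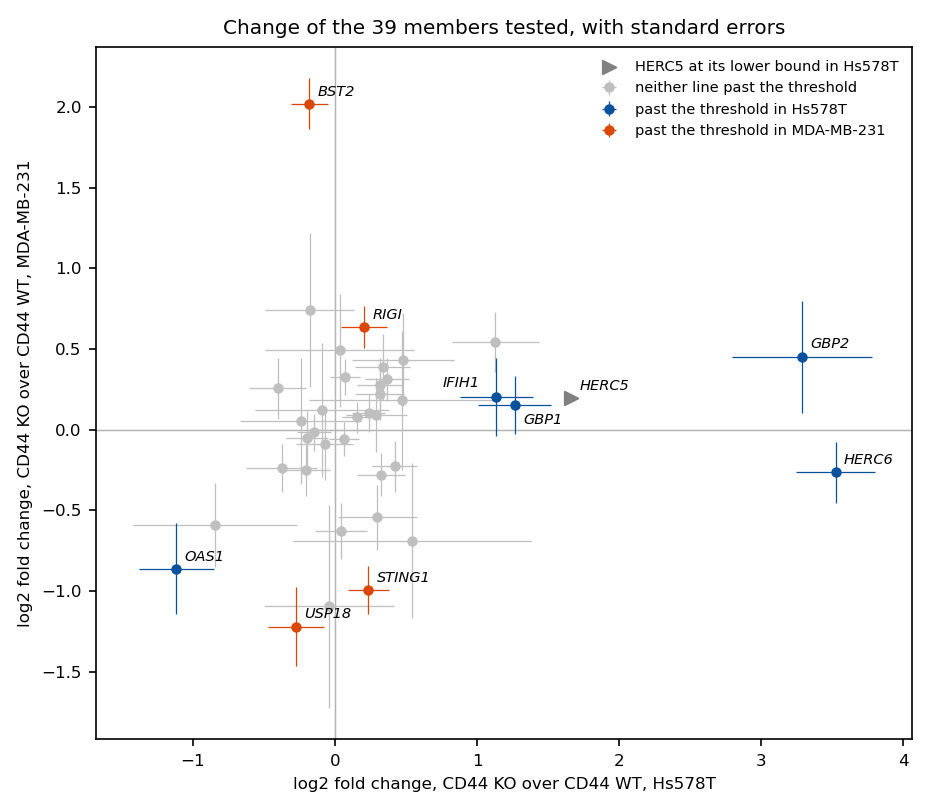
Change of the 39 tested members in CD44 KO, as log2 fold change over CD44 WT in Hs578T (horizontal axis) and MDA-MB-231 (vertical axis), with standard errors as bars. Blue points were called in Hs578T and orange points in MDA-MB-231, grey points in neither; HERC5 is drawn at its lower bound in Hs578T, and no point is called in both lines.

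In CD44 WT cells the lines differed in most of these genes. Of the 39 members, 29 differed between MDA-MB-231 WT and Hs578T WT, against 61.5% of all genes, and 22 were higher in MDA-MB-231 (against 29.4%) and 7 lower (against 32.2%). The members' median log2 fold change, MDA-MB-231 over Hs578T, was 0.93, beside -0.04 for all genes, and it is unmoved by where above the median HERC5 is set. HERC5 had 0 counts in Hs578T WT and 1215 in MDA-MB-231 WT, which, scaled to library size, was 441-fold the limit of 3 counts over the Hs578T group. After it came HERC6 (4.01 ± 0.27), IFIT2, OAS2, IFI44 and GBP2 (3.34 ± 0.49). IFIT2, an RNA-binding IFIT protein, was at 2.84, 2.22 and 2.37 CPM in Hs578T WT and at 29.4, 41.1 and 33.8 CPM in MDA-MB-231 WT (3.80 ± 0.19, adjusted p = 1.07e-10). OAS2 and IFI44 were higher by 3.63 ± 0.35 and 3.49 ± 0.26. Among the 22 were RIGI, higher by 2.98 ± 0.15, DHX58 by 2.92 ± 0.64, IFIH1 by 0.96 ± 0.26 and CGAS by 0.93 ± 0.12.

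The 7 members lower in MDA-MB-231 WT were led by BST2, with -4.28 ± 0.16, adjusted p = 3.99e-12. XAF1, a pro-apoptotic partner of XIAP, was at 18.3, 13.3 and 6.01 CPM in Hs578T WT and at 1.29, 1.70 and 1.07 CPM in MDA-MB-231 WT (-3.21 ± 0.40, adjusted p = 3.71e-06). PARP9, which acts with the ubiquitin ligase DTX3L, was at 31.8, 30.4 and 26.2 CPM and 12.3, 10.4 and 9.27 CPM (-1.47 ± 0.16, adjusted p = 6.81e-07). PARP14, an ADP-ribosyltransferase encoded near PARP9, was at 74.9, 77.7 and 63.1 CPM and 25.6, 32.0 and 32.3 CPM (-1.26 ± 0.11, adjusted p = 6.45e-08). Each of these 3 genes was therefore lower in every MDA-MB-231 WT library than in any Hs578T WT library. USP18 was lower as well (-1.04 ± 0.21, adjusted p = 0.000397). IFI6, a mitochondrial and endoplasmic reticulum protein, was at 10.4, 10.4 and 9.90 CPM and 7.54, 6.57 and 4.19 CPM (-0.75 ± 0.21, adjusted p = 0.00495), a call lost in 5 of 23 settings, with a highest adjusted p of 0.0518. STAT2 was the last of the 7 (-0.39 ± 0.10, adjusted p = 0.00331). The 10 members that did not pass were STING1, IFI16, IRF9, IRF1, OAS1, OASL, MX2, DDX60, SAMD9L and IFI35.

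**Figure D3:**
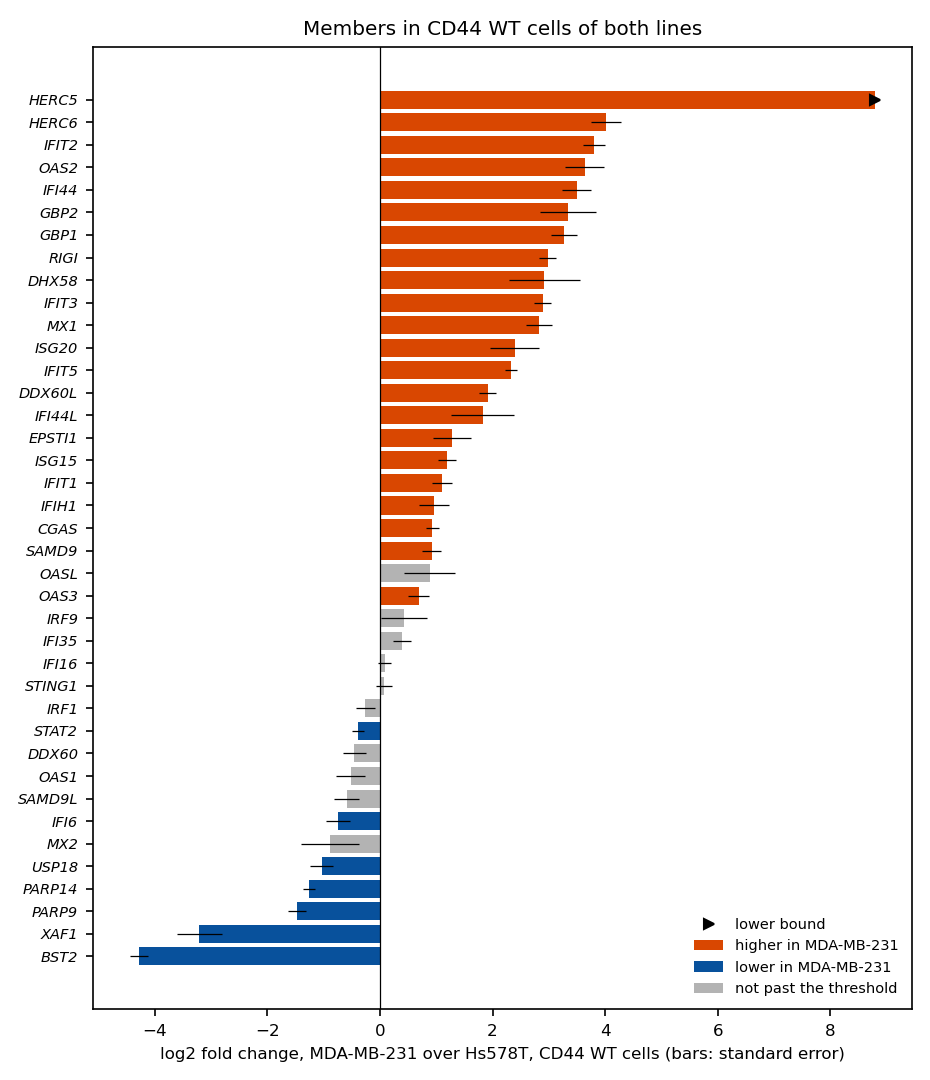
Log2 fold change of MDA-MB-231 over Hs578T in CD44 WT cells (horizontal axis) for the 39 tested members, ordered by size, with standard errors as lines. Orange bars were higher in MDA-MB-231 (22 members), blue bars lower (7 members) and grey bars not called; HERC5, absent from Hs578T WT, is drawn at its lower bound of 8.79.

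Per length, in length-scaled transcript units (TPM), the order of the members' levels also differed. In Hs578T WT, BST2 stood at 673 ± 18.02 TPM (SD, n = 3), followed by IFI16 at 54.2 ± 8.96, ISG15 at 47.1 ± 6.65 and IFI6 at 46.7 ± 0.616 TPM, the last 3 within their spread of each other. In MDA-MB-231 WT the highest were ISG15 at 81.4 to 115 TPM, RIGI at 80.9 ± 20.9 TPM and IFIT3 at 65.0 ± 8.34 TPM. ISG15 and RIGI overlapped there, and RIGI was the higher in 2 of 3 libraries. BST2 stood there at 31.0 ± 6.67 TPM in WT and at 131 ± 22.1 TPM in KO. In KO cells the levels of the called genes can be set beside those of the other line. The Hs578T KO libraries held GBP2 at 3.45 to 6.66 CPM, a range that overlapped the 3.65 to 7.22 CPM of MDA-MB-231 WT, and IFIH1 at 4.25 to 5.55 CPM, beside 3.60 to 4.90 CPM. HERC6, at 4.99 to 5.80 CPM, stayed under the 6.50 to 9.73 CPM of MDA-MB-231 WT, and GBP1, at 4.17 to 5.20 CPM, far under 19.0 to 19.7 CPM. BST2 in MDA-MB-231 KO, at 35.6 to 47.9 CPM, stayed far under the 183 to 199 CPM of Hs578T WT.

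The called genes were then set beside their neighbours, the 3 nearest tested genes on each side. GBP1 and GBP2 lie in the cluster of guanylate-binding protein genes on chromosome 1, where GBP3, GBP4, GBP5 and the pseudogene GBP1P1 also rose in Hs578T KO. Their fold changes were 0.85 for GBP3, 5.28 for GBP4, 2.61 for GBP5 and 4.24 for GBP1P1, while PTGES3P1, a pseudogene of another family between GBP1 and GBP2, was at 0.01. Reads shared by copies of this family could not be assigned to one of them. Around HERC6, no neighbour was called, and beside HERC5, described above, PPM1K, ABCG2, PKD2, PYURF and HERC3 had fold changes of -0.15 to 0.62. Beside IFIH1 in Hs578T, FAP, a serine protease of fibroblasts, rose by 4.27, GRB14, a signalling adaptor, rose by 4.22 and DPP4, a dipeptidase, fell (-2.096), all on the log2 scale and none of them a member. The other neighbours of IFIH1 were not called: AHCTF1P1 (0.11), FIGN (-0.42) and GCA (1.46), which lies next to IFIH1 on the side of GRB14. Beside BST2 in MDA-MB-231, the noncoding gene BISPR, which starts next to BST2 on the other strand, rose by 1.32 (adjusted p = 0.000973), and MVB12A, which starts close to BISPR, was at -0.08. Not one of the 6 neighbours of STING1, of USP18 or of RIGI was called. These neighbours were chosen by position after the members' values were known.

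**Figure D4:**
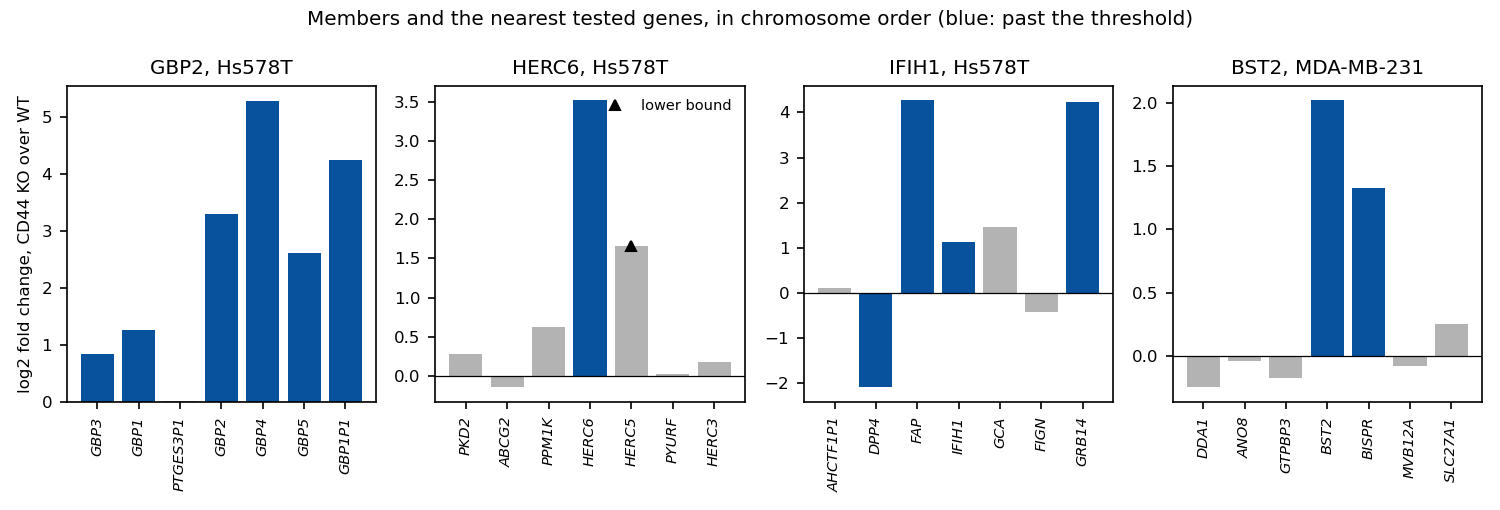
Log2 fold change in CD44 KO (vertical axis, a separate scale for each panel) of 4 members and the 3 nearest tested genes on each side, in chromosome order; blue bars were called and grey bars were not. GBP genes rose together in Hs578T, and HERC6 rose while no neighbour of it was called (HERC5 is drawn at its lower bound). IFIH1 had called non-members (DPP4, FAP and GRB14) and uncalled ones (AHCTF1P1, GCA and FIGN) beside it, and BST2 rose with BISPR in MDA-MB-231.

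The interferons themselves and the genes of their signalling were examined next. Of 21 interferon ligands listed, 0 passed the filter on low counts and 19 had 0 counts in every library. IFNB1, the fibroblast interferon, had 2, 1 and 1 counts in the Hs578T KO libraries and 0 in all other libraries. IFNE, an epithelial interferon, had 2, 0 and 5 counts in Hs578T WT and 5, 12 and 3 counts in KO. Among 15 receptors, kinases and regulators, 0 were called by edgeR in either line, with 3 in each line at an unadjusted p under 0.05, beside the 27.4% (Hs578T) and 23.4% (MDA-MB-231) of all genes at that limit. SOCS3, an inhibitor of JAK signalling, held 12.97, 14.3 and 13.2 CPM in Hs578T WT and 18.2, 17.02 and 18.4 CPM in KO (0.41 ± 0.11). In MDA-MB-231 it held 82.6, 69.2 and 77.4 CPM in WT and 58.6, 60.3 and 50.8 CPM in KO (-0.43 ± 0.10). Neither change passed, although their difference did (0.84 ± 0.15, adjusted p = 0.00229). The KO libraries of SOCS3 lay above all WT libraries in Hs578T and below them all in MDA-MB-231. The share of all genes that did so was not computed. IFNAR1, a chain of the type I receptor, was at -0.19 ± 0.12 in Hs578T and 0.17 ± 0.12 in MDA-MB-231.

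Among 18 genes that relay or carry out the sensing of nucleic acids, 15 were tested, and 1 was called in each line (6.67%, beside 7.51% over all genes for Hs578T and 4.62% for MDA-MB-231). TLR3, which senses double-stranded RNA in endosomes, was nearly lost in Hs578T KO. It had 71, 39 and 21 counts in WT and 1, 2 and 0 counts in KO, a ratio of 46.0 with a counting interval of 15.4 to 226 (95%), and it fell (-5.33 ± 0.67, adjusted p = 6.63e-05). In MDA-MB-231 it held 2.31, 4.38 and 4.28 CPM in WT and 7.12, 6.46 and 11.3 CPM in KO (1.16 ± 0.33, adjusted p = 0.0382), which did not pass, and the Hs578T change minus the MDA-MB-231 change was -6.48 ± 0.75, adjusted p = 6.19e-05. In Hs578T KO the endosomal sensor thus fell while the cytoplasmic sensor IFIH1 rose. TLR3, which is not a member, had KO and WT libraries apart in both lines on opposite sides, as SOCS3 had. TRAF3, a ubiquitin ligase downstream of MAVS and TLR3, rose in MDA-MB-231 by 0.50 ± 0.09, adjusted p = 0.00364, a call lost in 4 of 23 settings.

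Of 35 further interferon-induced genes, 29 were tested, with 3 higher (10.3%, against 3.64% of all genes) and 0 lower in Hs578T and 0 higher and 5 lower (17.2%, against 2.65%) in MDA-MB-231. SLFN5, a Schlafen family protein, went from 24.3, 30.4 and 34.3 CPM in Hs578T WT to 100, 106 and 78.7 CPM in KO (1.68 ± 0.23, adjusted p = 0.000139). GBP4 had 2, 0 and 1 counts in WT and 23, 90 and 30 counts in KO, a ratio of 45.3 with a counting interval of 15.2 to 222, and GBP3 rose with 0.85 ± 0.12, adjusted p = 0.000275. The 5 genes lower in MDA-MB-231 were TRIM22, TRIM21, IFITM1, IFITM2 and IFITM3, ubiquitin ligases and membrane proteins that block viral entry. TRIM21 went from 20.2, 17.3 and 19.2 CPM to 7.29, 8.16 and 8.30 CPM, and IFITM3 went from 244, 205 and 190 CPM to 88.9, 110 and 114 CPM (-1.25 ± 0.15 and -1.03 ± 0.11). The calls of TRIM22 and IFITM1 were lost in 5 and 3 settings. All 5 lie on chromosome 11 before CD44, where the median change of the 225 genes tested was -0.57 (log2) in MDA-MB-231, with 79 lower and 0 higher. The part of that region in the values of these 5 genes was not tested. In Hs578T its median was 0.08, and 0 of the 40 members lie on chromosome 11. RSAD2 and CMPK2, neighbours on chromosome 2 (from 6865806 and from 6840570), did not pass the filter, so that they have no test. The change of the genes around them was not examined. In MDA-MB-231 RSAD2 had 31 counts in WT and 2 in KO, a ratio of 17.96 (counting interval 4.57 to 155), and CMPK2 had 35 and 3, a ratio of 13.5 (4.26 to 68.7).

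Of 10 markers of blood and endothelial cells, 2 passed the filter, PECAM1 and PTPRC. The summed level of all 10 markers ran from 12.4 to 14.6 CPM in Hs578T WT and from 17.1 to 20.7 CPM in Hs578T KO. In MDA-MB-231 the sum lay between 2.94 and 4.46 CPM (WT) and between 2.88 and 5.73 CPM (KO). PECAM1, an adhesion molecule of endothelial cells, made up most of the Hs578T sum, at 11.6, 12.8 and 10.6 CPM in WT and 14.8, 12.8 and 14.1 CPM in KO, and was not called (0.25 ± 0.23). PTPRC, the pan-leukocyte phosphatase CD45, was called, at 0.277, 0.576 and 0.254 CPM in Hs578T WT and 4.81, 3.21 and 3.33 CPM in KO (3.33 ± 0.38, adjusted p = 3.19e-05). The leukocyte markers CD3E, CD14, CD68, LYZ and NKG7 stayed below 1 CPM in every library, and CLEC4C, a marker of plasmacytoid dendritic cells, had 0 counts. VIM was called higher in both lines (0.38 ± 0.08 and 0.43 ± 0.08), calls lost in 5 and 4 of 23 settings. Whether PTPRC or VIM bears on the change of the members was not tested.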

How the data were processed

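RNA from 12 samples was sequenced as paired reads from stranded libraries. Per the methods of the study, the authors mapped reads with HISAT2 2.1.0 to GRCh38 and made the deposited counts per gene with featureCounts 1.6.2 and GENCODE 28. Per the file header, counting used strand, both mates and a mapping quality of at least 10, so reads that fit several copies of a gene were dropped.

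Symbols were matched for 57754 of 58381 genes. Genes over 1 CPM in at least 2 libraries and of at least 300 nt were tested with edgeR 4.0.16 (R 4.3.3): TMM, quasi-likelihood test, all 12 libraries in one fit, adjusted p of at most 0.01. DESeq2 1.42.0 was an alternative. The fit was also run on simulated counts, with equal spread for all genes and changes only in genes of higher counts. That run did not cover changes in low-count genes or differences between the lines, and its outcome is not given here. One MDA-MB-231 CD44 WT column bears a name that stands in the descriptions of replicates 2 and 3 alike, so it was given no replicate number and is called unnumbered. TPM used the gene lengths in the table. Library values in the text are listed in the order replicate 1, 2 and 3, or 1, 3 and unnumbered for that group.

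The members and lists were chosen with earlier results of these data known. Library values are given for members called in CD44 KO or for the difference between lines, the 6 largest called in each direction between WT lines, RIGI, IFIH1, CGAS, STING1 and neighbouring pairs. Other library values were chosen after they were seen.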

Additional observations from a re-analysis of the deposited data

Results flagged for a closer look

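For 4 members, edgeR's test of the difference called the response to CD44 KO unlike in Hs578T and MDA-MB-231. Hs578T minus MDA-MB-231, the log2 difference was 3.79 for HERC6, 2.83 for GBP2, 1.23 for STING1 and -2.20 for BST2. The adjusted p ranged from 6.71e-06 for HERC6 to 0.00885 for GBP2. HERC6 and GBP2 were higher in KO in 3 of 3 Hs578T libraries, STING1 was lower in 3 of 3 MDA-MB-231 KO libraries, and BST2 was higher in 3 of 3 MDA-MB-231 KO libraries than in any WT library. Genes of the other lists differed as well, with 0.84 for SOCS3, -6.48 for TLR3, 1.33 for TRIM21, 0.96 for IFITM3 and 5.66 for PTPRC. For PTPRC the MDA-MB-231 side held only 10 counts in WT and 2 in KO. Its call was lost in 1 of 22 settings, the edgeR fit with the replicate block (adjusted p = 0.0180). TRIM21 and IFITM3 lie in the region of chromosome 11 whose median fell in MDA-MB-231.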

How the results depend on the processing

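HERC6 and GBP2 in Hs578T and BST2 in MDA-MB-231 kept their calls in all 23 alternatives run for them. The counts of called members were less stable. With each line fitted alone, 3 were called in Hs578T (IFIH1 and GBP1 lost) and 1 in MDA-MB-231 (BST2 kept). A log2 fold change of at least 1 left 2 in MDA-MB-231. Leaving out 1 library gave 2 to 5 called in Hs578T and 2 to 4 in MDA-MB-231. The Hs578T count was 2 without its WT replicate 1, KO replicate 2 or KO replicate 3, and 3 without MDA-MB-231 WT replicate 3. The MDA-MB-231 count was 2 without its WT replicate 1, KO replicate 2 or KO replicate 3, where RIGI and USP18 lost their calls. The cause was not tested. With 1 library left out the highest adjusted p was 0.0411 for IFIH1 (6 libraries lost the call), 0.0519 for OAS1 (8), 0.0218 for GBP1 (3), 0.0321 for RIGI (7), 0.0240 for USP18 (5), 0.0296 for the difference of GBP2 (9) and 0.0263 for IFI6 between WT lines (4). The 4 members that differed between the lines and the 29 that differed between WT lines stayed within 1.5 times, at 3 to 4 and 24 to 29 with 1 library left out.

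CGAS in MDA-MB-231, at -0.02 and never called, changed sign to 0.000362 with library sizes alone, 0.00613 with no filter on low counts and 0.0646 with the replicate block, and to 0.00924, 0.0526 and 0.0319 without Hs578T KO replicate 3, the unnumbered MDA-MB-231 WT library and MDA-MB-231 KO replicate 3. With 1 library left out it ran from -0.0778 to 0.0526.

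The replicate numbers were not taken as pairs, since correlations of deviations between same-numbered WT and KO libraries ran from -0.0957 to 0.164. Sets of the numbers in the column names (1 to 4, 5 to 8 and 9 to 12), each with 1 library of every group, gave 0.00793 to 0.164, with 3 of 6 over 0.1, and are not named as batches by the labels. With these sets as a block, OAS1 lost its call, and 4 members in each line were called. The fit with the replicate block, which drops the unnumbered library, called 4 members in Hs578T, 3 in MDA-MB-231, 4 for the difference and 24 between WT lines. Members under 1 CPM, such as HERC5 in Hs578T, are limited by counting error.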
